A study of Mus musculus with 32 samples.

Results

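Long noncoding RNAs that carry snoRNAs in their introns, and RNAs known to act in the nucleus, were followed through a polysome gradient. The members were 8 snoRNA host RNAs (Gas5, Snhg1, Snhg3, Snhg5, Snhg6, Snhg8, Snhg12 and Snhg15) and 2 nuclear RNAs (Malat1 and Neat1). They were chosen by gene symbol, and 10 of 10 were found among the 17757 genes counted. All 10 had a mean of at least 50 counts per library, as had 10909 of all genes.

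The RNA came from 4T1 cells, which derive from a mammary tumor of a mouse, grown as spheroids. The spheroids spent 5 days in LLM, a lung-like medium whose nutrients resemble those of lung interstitial fluid. All cells carried a lentiviral shRNA vector and were polyclonal, puromycin-selected populations. ASP shSCR and NoASP shSCR had a non-targeting shRNA, and ASP shGRIN2D and ASP shDHPS had an shRNA against Grin2d, an NMDA receptor subunit, or Dhps, the first enzyme of eIF5A hypusination. Aspartate was added at 700 µM in ASP shSCR, ASP shGRIN2D and ASP shDHPS and left out in NoASP shSCR. Each condition had 4 spheroid pellets, and each pellet gave a polysomal library (RNA with more than 3 ribosomes) and a sub-polysomal library (fewer than 3), 32 in all, with 12870563 to 25639437 counts per library.

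A host gene is spliced so that its introns release snoRNAs, which guide the modification of ribosomal RNA, while the joined exons leave as a capped and polyadenylated RNA. Several of these exon RNAs are known to reach cytoplasmic ribosomes, which translate a short open reading frame and stop early, and the RNA is then removed by nonsense-mediated decay. Malat1 is known as a component of nuclear speckles and Neat1 as the scaffold of paraspeckles. The lysate put on the gradient was the cytosolic supernatant. Malat1 and Neat1 were thus read in this supernatant alone, and how much of either stayed in the nuclei was not measured. The library kit captures RNA by its poly(A) stretch, so snoRNAs themselves were not analysed here.

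Many host RNAs are also known to begin with a C and a run of pyrimidines, the 5′ terminal oligopyrimidine start shared with mRNAs of ribosomal proteins. The starts of the members are therefore shown, from 10 bases before the annotated RefSeq start to 20 bases from it on (GRCm38.p6, transcribed strand, 5′ to 3′), with the longest run of C and T in capitals. RefSeq gave 9 starts for 8 members. Snhg6 and Neat1 were not matched.
Gas5, chr1:161034591-161034620, plus strand: gcgggCCCgcgagctcgacagcccggagcc
Gas5, chr1:161035156-161035185, plus strand: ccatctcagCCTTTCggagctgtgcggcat
Snhg1, chr19:8723477-8723506, plus strand: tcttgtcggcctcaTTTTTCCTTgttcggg
Snhg3, chr4:132353667-132353696, minus strand: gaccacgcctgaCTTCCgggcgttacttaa
Snhg5, chr9:88522878-88522907, minus strand: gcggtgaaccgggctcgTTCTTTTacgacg
Snhg8, chr3:123508317-123508346, minus strand: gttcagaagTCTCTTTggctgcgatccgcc
Snhg12, chr4:132308668-132308697, plus strand: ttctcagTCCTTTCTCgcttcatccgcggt
Snhg15, chr11:6528741-6528770, minus strand: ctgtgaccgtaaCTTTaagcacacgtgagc
Malat1, chr19:5802653-5802682, minus strand: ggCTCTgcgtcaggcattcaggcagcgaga

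A C followed by at least 4 bases that are each C or T was searched for on the transcribed strand alone, because the feature is one of the RNA. It was present in 5 of the 9 windows, namely the second Gas5 start and the starts of Snhg3, Snhg5, Snhg8 and Snhg12. Of all 32851 RefSeq start windows of the same length, 35.8% held it. The longest pyrimidine run was 9 bases in Snhg1 and Snhg12 and 3 bases in the first Gas5 window. These are matches of letters near annotated starts, and the starts used in these cells were not measured.

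The gene models came from GENCODE on GRCm38, an older build than the GRCm39 used for the counts. Gas5 (ENSMUSG00000053332, chromosome 1, 161034422 to 161038539, plus strand) has up to 12 exons and 10 snoRNA genes within its span. Snhg1 (ENSMUSG00000108414, chromosome 19, 8723475 to 8726443, plus strand) holds 8, and Snhg12 (ENSMUSG00000086290, chromosome 4, 132308623 to 132311024, plus strand) holds 5. Snhg3 and Snhg5 hold 2 each, and Snhg6, Snhg8 and Snhg15 hold 1 each. Malat1 (ENSMUSG00000092341, chromosome 19, 5795690 to 5802672, minus strand) and Neat1 (ENSMUSG00000092274, chromosome 19, 5824708 to 5845478, minus strand) hold none.

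The longest open reading frame in any annotated transcript of a host was short, from 35 codons in Snhg8 to 81 codons in Gas5. It had 64 codons in Malat1 and 126 codons in Neat1, whose longest annotated transcript has 20771 bases. The counts are per gene, so which of the annotated transcripts were read in these cells is not known. Some spans overlap other genes: Gas5 lies over Zbtb37 and Snhg6 over Mcmdc2 on opposite strands, and Snhg3 shares its strand with Rcc1, so reads of Snhg3 and Rcc1 may have been divided by the counting. The kit keeps strand, but the strand setting of the counting is not given in the sources used here.

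The silenced genes were read first as a check of the labels, in TMM-normalized CPM, counts scaled to a common library size. In the sub-polysomal libraries, Dhps had 9.98, 10.8, 10.2 and 8.96 CPM in ASP shDHPS and 42.9, 33.2, 43.3 and 41.3 CPM in ASP shSCR. All ASP shDHPS libraries lay below all ASP shSCR libraries, and the log2 level difference was −2.01 (SE 0.16, edgeR adjusted p = 1.11e-08). In the polysomal libraries it was −1.64 (SE 0.23, edgeR adjusted p = 0.0167). Grin2d was thinly counted, with 30 to 56 sub-polysomal reads per library in ASP shGRIN2D and 56 to 126 in ASP shSCR. Its level differences were −0.88 (SE 0.29, edgeR adjusted p = 0.232) sub-polysomal and −1.14 (SE 0.33, edgeR adjusted p = 0.263) polysomal, neither of which passed the threshold of 0.05.

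The epithelial genes Epcam, Krt8, Krt18, Krt19, Cdh1 and Cldn4 were counted in every library, with Krt8 at 550 to 3055 CPM. Of the genes that mark other cells, Ptprc reached at most 0.879 CPM, Csf1r 0.316 CPM and Pecam1 0.658 CPM. Pdgfra reached 6.58 to 35.6 CPM, and Cd3e, Cdh5 and Dcn are not among the genes counted.

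The polysomal library of ASP shSCR replicate 1 stood apart from the rest. On a scale set by the other 3 conditions, with their mean sub-polysomal profile at 0 and their mean polysomal profile at 1 over 11046 genes, it lay at 0.372. All remaining polysomal libraries fell in the range 0.777 to 1.27, and the range of the sub-polysomal libraries was −0.114 to 0.162. It bore on the members as well: the 8 host RNAs summed to 303.7 CPM there and to 149, 136 and 127 CPM in the other polysomal libraries of ASP shSCR. Its pellet is left out in a second value where that changes a result.

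All 10 RNAs were depleted from polysomes in all 4 conditions. By edgeR, each of the 40 polysomal to sub-polysomal log2 ratios was below 0, the level of the typical gene, with adjusted p values between 2.17e-08 and 0.00483. Among all genes the share called lower was 18.9% in ASP shSCR, 20.6% in NoASP shSCR, 20.4% in ASP shGRIN2D and 21.3% in ASP shDHPS. Among the genes with a mean of at least 50 counts it was 27.1%, 28.3%, 28.2% and 29.8%. Without ASP shSCR replicate 1 all 10 remained called lower in ASP shSCR. Without ASP shDHPS replicate 1, 9 of 10 did so in ASP shDHPS. There Snhg3, at −0.55, did not pass (edgeR adjusted p = 0.0641), nor did it in a fit that did not match the libraries of a pellet.

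The ratio sets the 2 libraries of a pellet against each other after scaling to the typical gene, so it is a relative position and not the share of molecules on ribosomes. In ASP shSCR, 3695 genes were called higher and 3363 lower. With scaling by total counts alone the split was 4369 to 2637, and the 10 members stayed lower. Of the 160 ratios of single pellets, 159 were below 0. The exception was Snhg12 in ASP shSCR replicate 1, at 0.38.

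**Figure D1:**
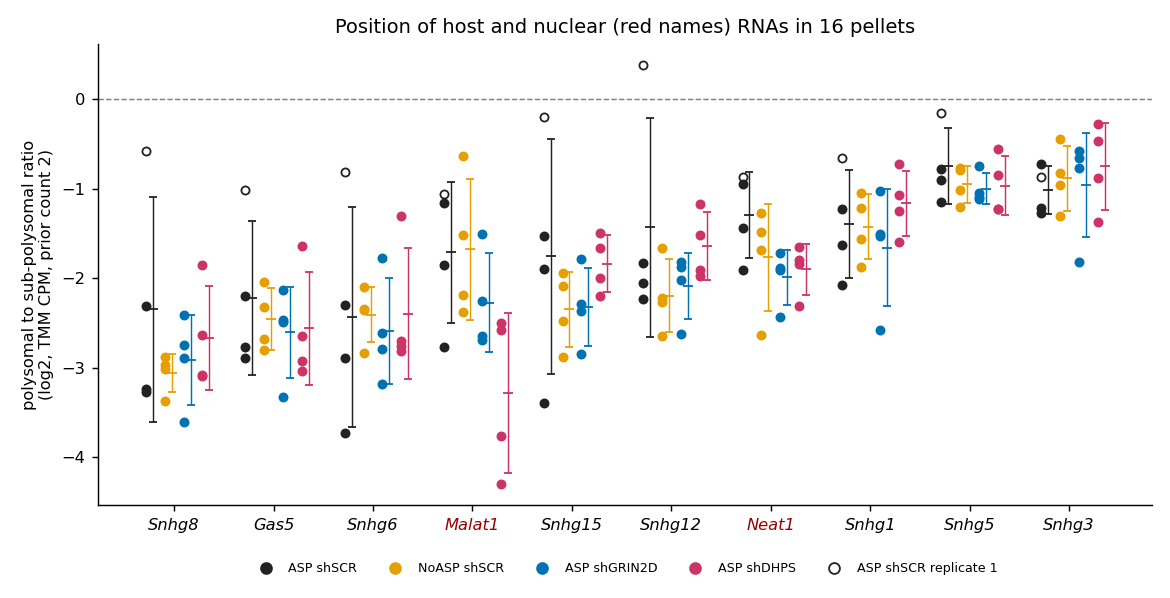
Polysomal to sub-polysomal log2 ratio (y axis) of each member (x axis, ordered by mean ratio, nuclear RNAs in red) in 16 pellets; points are pellets, colours conditions, bars mean ± SD (n = 4), and open circles ASP shSCR replicate 1. All points but 1 lie below 0, and Malat1 in ASP shDHPS reaches −4.30.

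Among the hosts, the depletion was deepest in Snhg8, Gas5 and Snhg6. Snhg8, a host of an H/ACA snoRNA, had a fitted ratio of −2.38 (SE 0.32) in ASP shSCR, or 5.21 times less in polysomes relative to the typical gene, and of −3.07 (SE 0.31), −2.92 (SE 0.31) and −2.68 (SE 0.31) in NoASP shSCR, ASP shGRIN2D and ASP shDHPS. The single pellets of ASP shSCR lay at −0.58, −3.27, −3.24 and −2.31, and those of NoASP shSCR at −3.01, −3.37, −2.88 and −2.97. Replicate 1 of ASP shSCR thus lay far above the rest, and without it the fitted ratio was −3.01. The fractions did not overlap in level: Snhg8 ran from 69.9 to 145.6 CPM over the sub-polysomal libraries and from 5.72 to 60.8 CPM over the polysomal ones.

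Gas5, a host of box C/D snoRNAs named for its rise in growth-arrested cells, had 153, 228, 262 and 158 CPM in the sub-polysomal and 75.8, 33.3, 35.2 and 34.3 CPM in the polysomal libraries of ASP shSCR. In NoASP shSCR the values were 177, 208, 273 and 141 CPM and 25.2, 32.5, 54.7 and 34.1 CPM. Sub-polysomal levels were 169, 317, 283 and 185 CPM in ASP shGRIN2D and 181, 267, 273 and 154 CPM in ASP shDHPS. Every sub-polysomal library held more than every polysomal one, over all 32 libraries. The polysomal levels went down to 16.7 CPM in ASP shGRIN2D replicate 1, and the 75.8 CPM of ASP shSCR replicate 1 was their maximum. The fitted ratios were −2.23 (SE 0.27), −2.46 (SE 0.27), −2.60 (SE 0.27) and −2.57 (SE 0.27) in the order ASP shSCR, NoASP shSCR, then ASP shGRIN2D and ASP shDHPS, a 4.70-fold to 6.08-fold depletion. Without replicate 1 the ASP shSCR value was −2.69.

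Snhg6, another host of a box C/D snoRNA, stood at −2.43 (SE 0.33), −2.43 (SE 0.32), −2.60 (SE 0.32) and −2.41 (SE 0.32) in the same order, and its levels in the fractions did not overlap either. The ASP shSCR value was −3.05 without replicate 1 and −2.01 without replicate 3. Of the 10909 genes with a mean of at least 50 counts, 0.266% had a lower ratio than Snhg6 in ASP shSCR and 1.67% in NoASP shSCR. For Gas5 the share ran from 0.458% in ASP shSCR to 1.51% in NoASP shSCR, and for Snhg8 from 0.257% to 0.633%. These RNAs were thus among the most sub-polysomal in the libraries, in each condition.

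Snhg15 and Snhg12 took a middle place. Snhg15, which carries an H/ACA snoRNA, had fitted ratios of −1.74 (SE 0.32), −2.37 (SE 0.31), −2.34 (SE 0.31) and −1.86 (SE 0.30), and Snhg12, which carries snoRNAs of both classes, −1.46 (SE 0.30), −2.22 (SE 0.30), −2.10 (SE 0.29) and −1.65 (SE 0.29), in the order ASP shSCR, NoASP shSCR, then ASP shGRIN2D and ASP shDHPS. Both values of ASP shSCR rested in part on replicate 1, and without it they were −2.34 and −2.13. In that polysomal library Snhg12 had 22.6 CPM (400 counts), against 6.04, 5.73 and 3.44 CPM in the others of its condition. It was 17.3 CPM in the sub-polysomal library of the same pellet. The pellet ratios of Snhg12 were 0.38, −2.23, −1.83 and −2.05 in ASP shSCR and −1.91, −1.98, −1.17 and −1.52 in ASP shDHPS. Those of Snhg15 were −0.21, −1.90, −3.40 and −1.53 in ASP shSCR, the widest range of a host within a condition, and −1.66, −2.20, −1.99 and −1.50 in ASP shDHPS.

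Snhg1, Snhg5 and Snhg3 were the least depleted hosts. Snhg1, a host of box C/D snoRNAs, had ratios of −1.40 (SE 0.23; −1.71 without replicate 1), −1.43 (SE 0.23), −1.66 (SE 0.23) and −1.16 (SE 0.23). Snhg5, also a box C/D host, had −0.75 (SE 0.18), −0.96 (SE 0.18), −1.01 (SE 0.18) and −0.97 (SE 0.18), and Snhg3, an H/ACA host, −1.03 (SE 0.21), −0.89 (SE 0.21), −0.95 (SE 0.21) and −0.75 (SE 0.21). Between 14.7% and 23.5% of the genes with a mean of at least 50 counts lay below Snhg3, and between 18.1% and 21.7% below Snhg5, so that these RNAs were called lower but were not at the edge of the distribution. The pellets of Snhg3 lay at −0.87, −0.72, −1.27 and −1.21 in ASP shSCR and at −1.37, −0.88, −0.47 and −0.28 in ASP shDHPS. Those of Snhg5 lay at −0.16, −1.15, −0.91 and −0.78 in ASP shSCR and at −1.23, −0.85, −1.23 and −0.56 in ASP shDHPS. No pellet of either RNA reached 0, and Snhg3 was the host whose ASP shSCR replicate 1 stayed among the others. Without replicate 1 of ASP shSCR, Snhg5 was at −1.02 and Snhg3 at −1.14. Levels of these hosts overlapped between the fractions, with Snhg5 at 28.1 to 54.6 CPM sub-polysomal and 15.5 to 35.2 CPM polysomal.

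By fitted ratio, the nuclear RNAs lay inside the range of the hosts, except for Malat1 in ASP shDHPS, which lay below them all. In the single pellets of ASP shDHPS, Malat1 lay below all hosts in replicates 1 and 4 only. In replicates 2 and 3, 3 of the 8 hosts lay below it. Malat1 had 25.1, 51.2, 96.9 and 97.3 CPM in the sub-polysomal libraries of ASP shSCR and 12.0, 14.1, 14.2 and 43.5 CPM in the polysomal ones. Its fitted ratio was −1.71 (SE 0.31) there, −1.69 (SE 0.31) in NoASP shSCR, −2.29 (SE 0.31) in ASP shGRIN2D and −3.27 (SE 0.33) in ASP shDHPS. The sub-polysomal level of Malat1 ran from 25.1 to 125.6 CPM, and the fractions overlapped through 2 polysomal libraries, ASP shSCR replicate 4 (43.5 CPM) and NoASP shSCR replicate 1 (25.8 CPM). Neat1 had fitted ratios of −1.29 (SE 0.21), −1.76 (SE 0.21), −1.99 (SE 0.21) and −1.90 (SE 0.21) in the same order, with 74.2 to 230.3 CPM in the sub-polysomal and 19.3 to 51.7 CPM in the polysomal libraries, and these did not overlap. Among those 10909 genes, 3.25%, 7.02%, 2.73% and 0.211% had a lower ratio than Malat1 in the 4 conditions in that order, the last share being 23 genes. For Neat1 the shares were 9.04%, 6.31%, 4.82% and 4.73%. Without replicate 1 of ASP shSCR, Malat1 was at −1.99 and Neat1 at −1.50 in that condition.

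**Figure D2:**
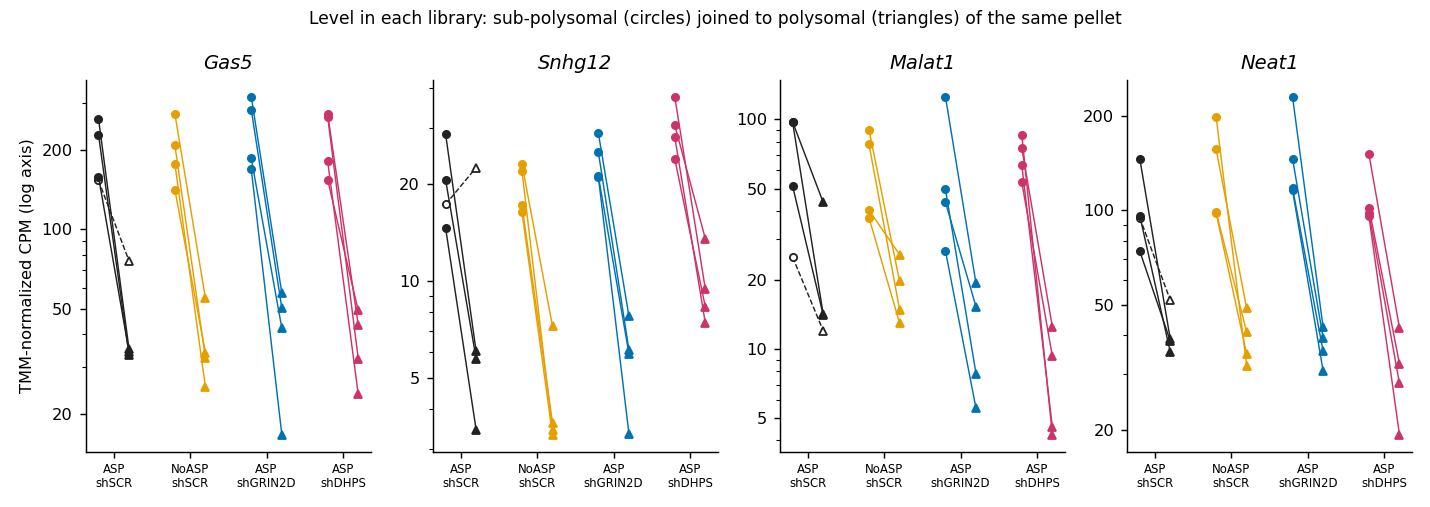
TMM-normalized CPM (log axis) of Gas5, Snhg12, Malat1 and Neat1 in each library, with sub-polysomal (circles) and polysomal (triangles) libraries of a pellet joined and colours for conditions; open symbols and dashed lines are ASP shSCR replicate 1. Every line falls except that of Snhg12 in that pellet, and Malat1 falls to 4.24 to 12.5 CPM in ASP shDHPS.

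Averaged over the 4 conditions, the pellet ratios ordered the RNAs from Snhg8 (−2.75) through Gas5 (−2.46), Snhg6 (−2.46), Malat1 (−2.24), Snhg15 (−2.07), Snhg12 (−1.84), Neat1 (−1.74), Snhg1 (−1.41) and Snhg5 (−0.92) to Snhg3 (−0.90). Most neighbours in this order did not separate. Gas5 lay below Snhg6 in 7 of 16 pellets, Malat1 below Snhg15 in 9, Snhg12 below Neat1 in 8 and Snhg5 below Snhg3 in 7. The clear step was between Snhg1 and Snhg5, where Snhg1 was lower in 16 of 16 pellets, and Snhg8 was lower than Gas5 in 14 of 16. At the ends of this order stood Snhg8 and Snhg3, whose longest annotated open reading frames had 35 and 43 codons. A relation between this length and the order was not tested.

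Hosts and nuclear RNAs were then compared within each pellet, as the mean ratio of the 8 hosts minus the mean of Malat1 and Neat1. This difference was −0.17 ± 0.50 (SD, n = 4) in ASP shSCR, −0.24 ± 0.86 in NoASP shSCR and 0.11 ± 0.52 in ASP shGRIN2D, all within the spread of the pellets around 0. In ASP shDHPS it was 0.84 ± 0.89, with 0.71, 0.09, 0.44 and 2.13 in the single pellets, so the hosts were the less depleted class in 4 of 4 pellets, and without replicate 4 the mean was 0.41. Neat1 did not share this: the host mean lay below Neat1 in replicates 1 (−2.08 and −1.80) and 2 (−1.98 and −1.65) and above it in replicates 3 and 4. Without replicate 1 the difference in ASP shSCR was −0.38 ± 0.31 (SD, n = 3), and without replicate 4 it was 0.01. In NoASP shSCR it ran from −0.58 without replicate 4 to 0.03 without replicate 1. In ASP shGRIN2D it ran from −0.08 without replicate 3 to 0.34 without replicate 1. These values are a description, because the members of both classes were picked with results of these data known.

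The split was not uniform within the classes. In no pellet did all hosts lie below both nuclear RNAs, and in 1 of 16, ASP shDHPS replicate 4, all 8 lay above both. The host mean was −1.67 ± 0.83, −1.97 ± 0.28, −2.02 ± 0.43 and −1.75 ± 0.41 (SD, n = 4 each) in the order ASP shSCR, NoASP shSCR, then ASP shGRIN2D and ASP shDHPS. Without replicate 1 it was −2.06 ± 0.34 (SD, n = 3) in ASP shSCR, so that this condition went from the highest host mean to the lowest, and the condition means lay within the spread of the pellets. The nuclear mean ran from −1.50 ± 0.63 in ASP shSCR (−1.68 ± 0.64 without replicate 1, n = 3) to −2.59 ± 0.56 in ASP shDHPS.

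**Figure D3:**
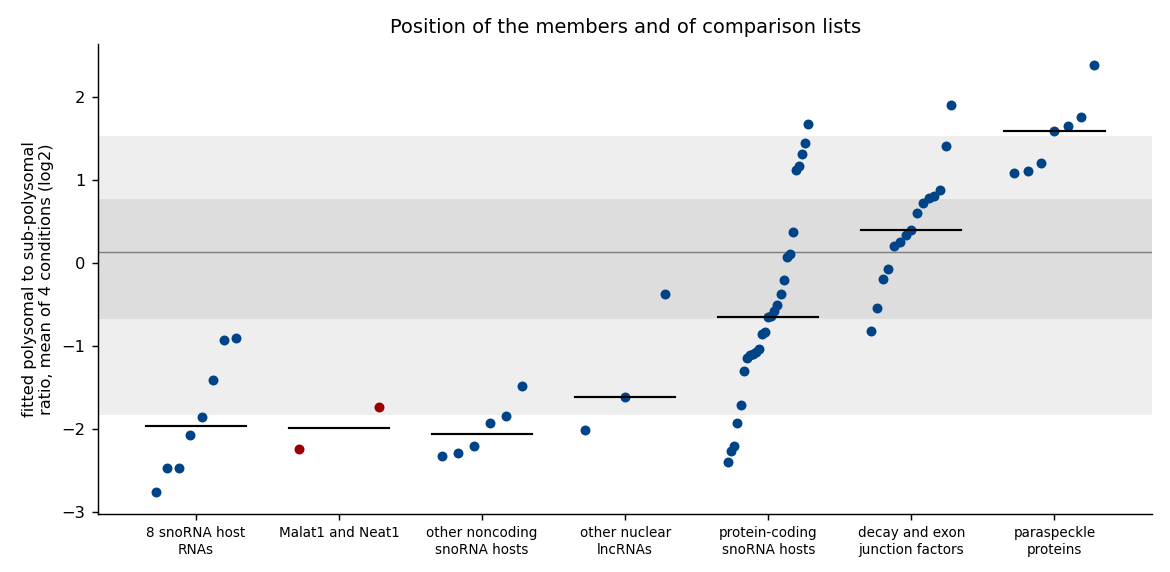
Fitted log2 ratio, mean of 4 conditions (y axis), of each gene with a mean of at least 50 counts in the member classes and 5 comparison lists (x axis); black bars are list medians, and the bands run between the quartiles and between the percentiles 5 and 95 of 10909 genes. Noncoding hosts lie low, paraspeckle proteins high, and protein-coding snoRNA hosts on both sides.

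Other genes of the same biology were read from fixed lists, beside a median ratio of −0.04 over all 17757 genes in ASP shSCR. Of 13 further noncoding snoRNA hosts, 10 were among the genes counted, and 8, 9, 9 and 10 of them were called lower in the order ASP shSCR, NoASP shSCR, then ASP shGRIN2D and ASP shDHPS, with medians of −1.79, −2.17, −2.37 and −2.13. None was called higher. Of all genes, 18.9%, 20.6%, 20.4% and 21.3% were called lower in that order. In ASP shSCR, Zfas1 stood at −2.09 (SE 0.29), Epb41l4aos at −1.97 (SE 0.32), Snhg16 at −1.28 (SE 0.31) and Snhg17 at −1.09 (SE 0.31). The medians of the 8 members were −1.60, −2.29, −2.22 and −1.75 in the same order. That of ASP shSCR rested on replicate 1. Without it each of the 8 had a lower fitted ratio there, and the middle values, Snhg15 and Snhg12, were −2.34 and −2.13.

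The listed snoRNA hosts that also encode proteins, most of them ribosomal proteins, were called lower more often than higher. Of 27, 18 were called lower and 5 higher in ASP shSCR, 16 and 5 in NoASP shSCR, 15 and 6 in ASP shGRIN2D, and 14 and 6 in ASP shDHPS. The share of all genes was 18.9% to 21.3% lower and 20.8% to 23.7% higher, so the count called higher was near the background. At the low end in ASP shSCR were Rps12 (−2.19, SE 0.27) and Rps20 (−2.15, SE 0.28), which encode proteins of the small ribosomal subunit, close to the ratio of Gas5. At the high end were Nop58 (1.61, SE 0.19), a core protein of box C/D snoRNPs, and Eif4a1 (1.52, SE 0.24), the helicase of translation initiation. The other genes called higher there, named after their values were seen, were Hspa9, Ncl and Nop56. In the mean of the 4 conditions, the ribosomal protein genes of the list lay below 0, except Rpl7a (0.11), also named afterwards. The rest of the list lay on both sides of 0. The part of hosting apart from this make-up was not tested.

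Of 10 other long noncoding RNAs known to act in the nucleus, 5 were counted, and 2, 2, 2 and 3 of them were called lower in the 4 conditions, where 18.9% to 21.3% of all genes were. In ASP shSCR, Firre, which anchors chromosome loci, had −1.67 (SE 0.26) and Pvt1, the neighbour of Myc, −1.22 (SE 0.28). Tug1, which is found in both compartments, had −0.31 (SE 0.18, edgeR adjusted p = 0.184). The median of the 5 was −0.31, and 2 of the 5, Airn and Kcnq1ot1, named after their values were seen, were counted fewer than 50 times per library on average.

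The mRNAs of 7 paraspeckle proteins, the partners of Neat1, had the opposite position. They were called higher in polysomes in every condition, 7 of 7 each time, with medians of 1.59, 1.60, 1.73 and 1.39. In ASP shSCR, Nono stood at 0.89 (SE 0.27), Rbm14 at 0.92 (SE 0.30) and Pspc1 at 1.81 (SE 0.21). The share of all genes called higher was 20.8% in ASP shSCR, 23.7% in NoASP shSCR, 23% in ASP shGRIN2D and 21.8% in ASP shDHPS.

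The 15 genes of nonsense-mediated decay and the exon junction complex were mixed, with 6, 8, 6 and 7 called higher and 1, 2, 2 and 3 called lower in the order ASP shSCR, NoASP shSCR, then ASP shGRIN2D and ASP shDHPS. Of all genes, 20.8% to 23.7% were called higher and 18.9% to 21.3% lower. Eif4a3, the core of the exon junction complex, stood at 1.63 (SE 0.18) and Smg8, a regulator of the Smg1 kinase, at 1.47 (SE 0.19) in ASP shSCR. Smg5, an adaptor of decay, was lower at −1.01 (SE 0.17). Upf3a, which binds exon junctions, had −0.46 (SE 0.19, edgeR adjusted p = 0.0514).

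The next question was whether aspartate, Grin2d or Dhps changed the position of these RNAs. None of the 30 differences of ratios passed the threshold (edgeR, adjusted over all genes), 3 of them had an unadjusted p under 0.05, and in none were the pellets of ASP shSCR clear of those of the other condition. Of all genes, the pellets of ASP shSCR lay entirely above those of NoASP shSCR in 0.794% and entirely below in 0.963%. The shares were 0.884% and 1.04% against ASP shGRIN2D, and 4.71% and 2.15% against ASP shDHPS. The share called by the test was low as well: 0% of all genes were called against NoASP shSCR (343 with an unadjusted p under 0.05), 0% against ASP shGRIN2D (571) and 0.208% against ASP shDHPS (2416). The 37 genes called against ASP shDHPS were all higher in ASP shSCR, and this count was 0 to 157 with 1 pellet left out. Under other settings the share called against ASP shDHPS ran from 0% to 3.74%. The 3 comparisons share the ASP shSCR pellets.

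Against NoASP shSCR, in which aspartate was left out, the differences of the hosts ran from −0.13 in Snhg3 (95% interval −0.75 to 0.48) to 0.76 in Snhg12 (−0.10 to 1.61). That of Malat1 was −0.02 (−0.89 to 0.85) and that of Neat1 0.47 (−0.14 to 1.08). Without NoASP shSCR replicate 4 the difference of Neat1 was 0.19. A positive value means a higher ratio in ASP shSCR. The larger host values came with replicate 1 of ASP shSCR, since without it Snhg12 was at 0.14 and Snhg8 went from 0.69 to 0.10.

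Against ASP shGRIN2D, Neat1 had the largest difference, 0.70 (SE 0.29, edgeR adjusted p = 1, unadjusted p = 0.0248). Its pellets lay at −0.87, −1.44, −1.91 and −0.95 in ASP shSCR and at −1.91, −1.72, −2.44 and −1.89 in ASP shGRIN2D, and they overlapped through replicate 3 of ASP shSCR. That of Malat1 was 0.58 (95% interval −0.29 to 1.45), and 0.33 without replicate 1 of ASP shSCR. The host differences ran from −0.08 in Snhg3 to 0.64 in Snhg12. Without that pellet the hosts ran from −0.42 in Snhg6 to 0.02 in Snhg5 and Snhg15, and Neat1 was at 0.52.

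Against ASP shDHPS, Malat1 had the largest difference of any member. Its pellets lay at −1.06, −1.85, −2.77 and −1.16 in ASP shSCR and at −3.76, −2.50, −2.57 and −4.30 in ASP shDHPS. Only replicate 3 of ASP shSCR fell within the range of ASP shDHPS. The difference of 1.56 (SE 0.43, 95% interval 0.68 to 2.45) corresponds to 2.96-fold and had an edgeR adjusted p of 0.0945 (unadjusted p = 0.00123), so it did not pass. DESeq2's Wald test gave an adjusted p of 0.0253, in a test that called 3.74% of all genes. Without replicate 1 of ASP shSCR the difference was 1.31 (edgeR adjusted p = 0.159).

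Neat1 had a difference of the same sign from ASP shDHPS, 0.61 (SE 0.29, edgeR adjusted p = 0.366, unadjusted p = 0.049). The hosts had smaller values. Those ran from −0.27 in Snhg3 to 0.34 in Gas5, with 95% intervals as wide as −0.94 to 0.90 in Snhg6. Without replicate 1 of ASP shSCR all 8 were below 0, from −0.61 in Snhg6 to −0.02 in Snhg5, so the direction of 5 of the 8 hosts depended on this pellet. A difference between the classes was not tested.

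**Figure D4:**
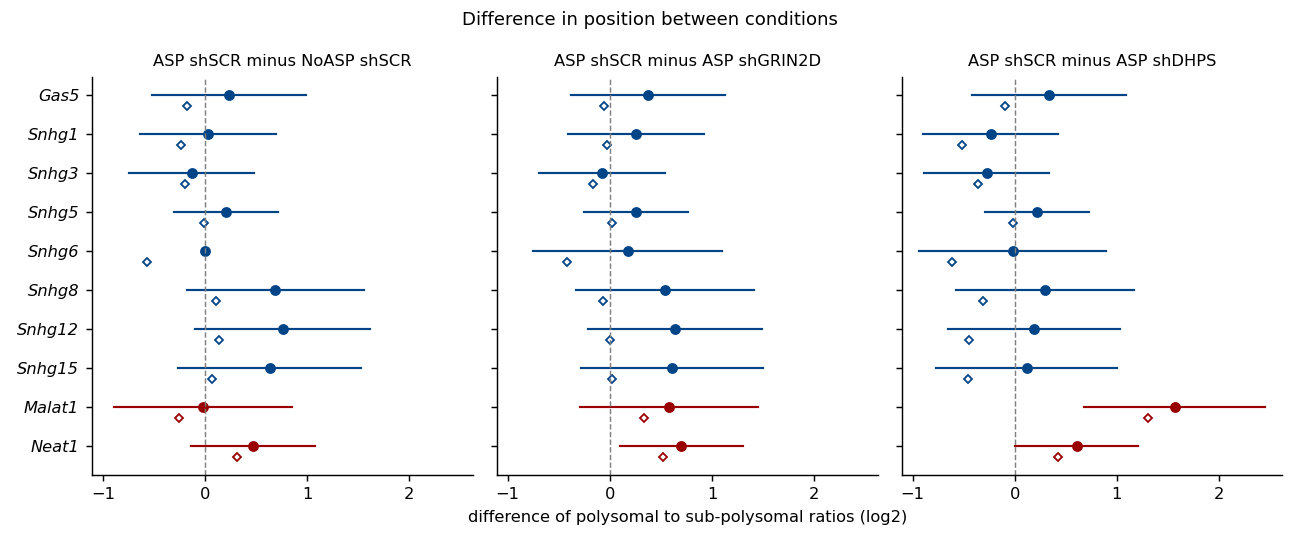
Difference of log2 ratios, ASP shSCR minus each other condition (x axis), for 8 hosts (blue) and Malat1 and Neat1 (red); dots and lines are edgeR estimates with 95% intervals (none could be computed for Snhg6 against NoASP shSCR) and open diamonds the estimates without ASP shSCR replicate 1. The interval of Malat1 against ASP shDHPS, 0.68 to 2.45, lies farthest from 0.

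Within single fractions, 0 of the 60 level differences from ASP shSCR passed the threshold by edgeR, with 7 at an unadjusted p under 0.05. Of all genes, 0%, 0.315% and 1.41% were called in the sub-polysomal libraries of NoASP shSCR, ASP shGRIN2D and ASP shDHPS, and 0%, 0.0169% and 0.169% in the polysomal ones. An unadjusted p under 0.05 was found for 871, 1955 and 2833 of the 17757 genes sub-polysomal and for 1376, 1608 and 2905 polysomal, a share like that of the members. These all-gene counts moved with single pellets. In the polysomal libraries 28 genes were called lower in ASP shDHPS, and 0 to 289 with 1 pellet left out, the low end reached without ASP shSCR replicate 2 or ASP shDHPS replicate 1 or 3. In ASP shGRIN2D 0 were called lower there, and 0 to 84 with 1 left out. Both high ends came without ASP shSCR replicate 3. Sub-polysomal, 173 were called lower in ASP shDHPS, and as few as 60 without ASP shSCR replicate 2, and 37 in ASP shGRIN2D, and as few as 12 without ASP shGRIN2D replicate 4. In bulk libraries fewer cells with an RNA and less of it per cell cannot be told apart. The summed level of the 8 hosts was 573 ± 128, 563 ± 137, 640 ± 191 and 657 ± 144 CPM (SD, n = 4 each) in the sub-polysomal libraries in the order ASP shSCR, NoASP shSCR, then ASP shGRIN2D and ASP shDHPS. In the polysomal libraries it was 179 ± 83.7, 144 ± 44.4, 160 ± 67.5 and 190 ± 38.5 CPM. Without replicate 1, ASP shSCR was at 137 ± 11.2 CPM (SD, n = 3), below the other conditions rather than second highest.

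The lower ratio of Malat1 in ASP shDHPS was set beside its level in each fraction. Its polysomal libraries had 4.56, 9.30, 12.5 and 4.24 CPM in ASP shDHPS, or 77, 184, 223 and 77 counts, where ASP shSCR had 12.0, 14.1, 14.2 and 43.5 CPM. The groups overlapped, with the highest library of ASP shDHPS at 12.5 CPM and the lowest of ASP shSCR at 12.0 CPM. The log2 level difference was −1.49 (SE 0.45, edgeR adjusted p = 0.125) and did not pass, while DESeq2's Wald test gave an adjusted p of 0.0323 and called 3.12% of all genes. Without ASP shSCR replicate 4, the highest library, it was −0.89. The sub-polysomal difference was 0.02 (SE 0.36), from 63.2, 53.2, 74.9 and 85.4 CPM in ASP shDHPS.

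Among the hosts, Snhg12 had the sub-polysomal level difference with the lowest p. It had 28.1, 37.5, 30.6 and 24.0 CPM in ASP shDHPS and 17.3, 28.7, 20.7 and 14.6 CPM in ASP shSCR, which overlap, and the difference was 0.56 (SE 0.19, edgeR adjusted p = 0.148). In the polysomal libraries Snhg8 was at −1.26 (SE 0.46, edgeR adjusted p = 0.418) in NoASP shSCR and at −1.17 (SE 0.46, edgeR adjusted p = 0.407) in ASP shGRIN2D, both against the ASP shSCR mean that holds the 60.8 CPM of replicate 1. Without that pellet they were −0.23 and −0.15. Snhg12 was at −1.25 (SE 0.49, edgeR adjusted p = 0.468) in the polysomal libraries of NoASP shSCR, against a mean that holds 22.6 CPM in the same library, and at −0.20 without it.

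The sub-polysomal level of Neat1 in ASP shGRIN2D did not pass either. The libraries had 116, 118, 230 and 146 CPM in ASP shGRIN2D and 94.8, 96.2, 146.2 and 74.2 CPM in ASP shSCR, and they overlapped through replicate 3 of ASP shSCR. The difference was 0.57 (SE 0.24, edgeR adjusted p = 0.356), and 0.29 without ASP shGRIN2D replicate 3, the library with 230 CPM (edgeR adjusted p = 0.700). In the polysomal libraries Neat1 was at −0.24 (SE 0.24, edgeR adjusted p = 0.859) in ASP shGRIN2D and at −0.51 (SE 0.24, edgeR adjusted p = 0.295) in ASP shDHPS, from 28.1, 32.5, 42.2 and 19.3 CPM in the last. Without ASP shSCR replicate 1 these were −0.03 and −0.30. The summed sub-polysomal level of Malat1 and Neat1 was 170 ± 52.8, 199 ± 72.6, 214 ± 96.6 and 181 ± 32.1 CPM (SD, n = 4 each) in the order used above, and the polysomal sum 62.0 ± 14.5, 57.4 ± 11.7, 49.0 ± 11.3 and 38.1 ± 13.3 CPM.

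The RNAs whose level most resembled that of Gas5 over the 32 libraries were Gm10076 (Pearson r = 0.979), Snhg6 (r = 0.979), Rpl41 (r = 0.977), Zfas1 (r = 0.975) and Gm28437 (r = 0.974), among 10908 genes. Snhg6 and Zfas1 are hosts, and Rpl41 encodes a ribosomal protein. For Malat1 they were mt-Nd6 (r = 0.915), Elk4 (r = 0.890), Zfp91 (r = 0.884), Nktr (r = 0.884) and Vps54 (r = 0.884), with Neat1 in place 8 (r = 0.877). The best match of Malat1 was thus weaker than those of Gas5, and Gas5 was in place 114 of its list (r = 0.814). These correlations describe libraries that fall into 2 fractions and that share pellets, and no p is given.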

How the data were processed

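The authors trimmed reads with Trim Galore 0.6.6, mapped them to GRCm39 with STAR 2.6.1 and quantified genes with Salmon 1.4.0. The deposited counts are these estimates rounded by the authors to whole numbers, not normalized, after a filter on expression. In the file, each of the 17757 genes had reads in at least 3 of the 4 libraries of at least 1 of the 8 groups. The authors' tables of differences, p values and gene set scores (DESeq2 1.34.0) were not used.

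Genes were tested in R 4.3.3 with edgeR 4.0.16 (TMM, quasi-likelihood F-test, two-sided, Benjamini-Hochberg over 17757 genes, threshold 0.05). Ratios came from 32 libraries, with 1 term per pellet, since the fractions of a pellet are matched, and 1 polysomal to sub-polysomal ratio per condition. Levels came from the 16 libraries of a fraction with condition as the term. CPM and pellet ratios used TMM, and log2 values a prior count of 2. Alternatives were other scalings (DESeq2 size factors, total counts), a filter of 10 counts in every library, DESeq2 1.42.0, other pairings and samples, and each pellet left out.

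The members and lists were chosen with earlier results of these data known. All members were named. Of each list, the 2 highest and 2 lowest ratios in ASP shSCR with a mean of at least 50 counts were named, and the 5 genes most like Gas5 and Malat1. One gene that this rule names is not reported here. Library totals were 12870563 to 25639437, with 48 to 5211 counts per member and library. Standard errors of positions were 0.18 to 0.33 (log2), and replicates differed beyond counting noise (chi-square per degree of freedom of at least 29.6). The steps were tested on simulated data. No identical libraries were found.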

Additional observations from a re-analysis of the deposited data

Results flagged for a closer look

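Dixon's criterion was applied to 120 groups of 4 values of the members (CPM in a fraction, or pellet ratios). In 10 of them 1 sample lay far from the other 3. For independent values with a normal spread, 6 would be flagged by chance. The ratios are made from the same libraries as the CPM, so the groups are not independent, and 10 against 6 was not tested. Of the 10, 5 came from the polysomal library of ASP shSCR replicate 1, which stood apart over all genes. In it Gas5 had 75.8 CPM (33.3 to 35.2 in the other 3 libraries), Snhg8 60.8 CPM (11.4 to 16.2), Snhg12 22.6 CPM (3.44 to 6.04) with a pellet log2 ratio of 0.38 (−2.23 to −1.83), and Snhg3, alone in being low, 8.97 CPM (10.9 to 11.2). Without this pellet the fitted ratios in ASP shSCR were −2.69 in Gas5, −3.01 in Snhg8, −2.13 in Snhg12 and −1.14 in Snhg3, where they had been −2.23, −2.38, −1.46 and −1.03.

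The other values were spread over 5 pellets. In ASP shGRIN2D replicate 1, Snhg3 had a pellet log2 ratio of −1.82 (−0.77 to −0.58 in the others), and in ASP shDHPS replicate 4, Snhg6 had −1.30 (−2.81 to −2.70). Snhg12 had 7.23 CPM in the polysomal library of NoASP shSCR replicate 3 (3.32 to 3.62). Malat1 had 43.5 CPM in the polysomal library of ASP shSCR replicate 4 (12.0 to 14.2), and Neat1 had 151 CPM in the sub-polysomal library of ASP shDHPS replicate 3 (95.9 to 102). What set these apart was not tested.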

How the results depend on the processing

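No result changed sign past a threshold. The 10 members stayed called lower in each condition under each alternative, except Snhg3 in ASP shDHPS, at −0.72 without the pellet term (edgeR adjusted p = 0.0525) and at −0.55 without ASP shDHPS replicate 1 (edgeR adjusted p = 0.0641). With 1 pellet left out the number called lower was 9 to 10 in ASP shDHPS and 10 elsewhere. The number of members called was 0 in each other comparison, and 1 in 3 settings. DESeq2's Wald test called Malat1 in the ratio difference from ASP shDHPS and in the polysomal level in ASP shDHPS (adjusted p = 0.0323), where it called 3.74% and 3.12% of all genes. The replicate block called Snhg12 in the sub-polysomal level in ASP shDHPS, at 0.58 (edgeR adjusted p = 0.0154), where it called 4.27% of all genes. The block moved no other count of members. The labels do not say that numbers pair conditions, and not every same-numbered pair correlated over 0.1. The median correlation of pellet ratios was 0.17 for the same number (24 pairs, lowest −0.27) and −0.05 for others (72 pairs). For sub-polysomal levels it was 0.25 (lowest −0.31) and −0.08, and 14 of 16 libraries were closest to their own number. For polysomal levels it was 0.36 (lowest −0.23) and −0.11, with 11 of 16. This is a hint from the data, not from the design.

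The Malat1 difference from ASP shDHPS ran from 1.23 to 1.91 over all settings (adjusted p 0.0253 to 0.330). The count of all genes higher in ASP shSCR than in ASP shDHPS was 37, but 0 with DESeq2 size factors, without the pellet term or with only these conditions, 216 with the replicate block, 259 with the filter of 10 counts and 436 with DESeq2, which also called 228 lower. With 1 pellet left out it ran from 0 to 157. Host ratio differences had standard errors of 0.25 to 0.45, and differences as large as 0.76 did not pass.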
